A study of Mus musculus with 22 samples.

Results

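The receptors that bind the Fc part of IgG and the subunits of the phagocyte NADPH oxidase were followed at the transcript level in murine bone marrow-derived macrophages (BMDM). The 9 genes were Fcgr1, Fcgr3, Fcgr4, Fcgr2b, Fcer1g, Cybb, Cyba, Ncf1 and Ncf4, and they were taken by name, as every probe whose RefSeq accession belongs to one of them. That gave 10 of the 55681 non-control probes of the array, and 9 of the 22346 genes that could be tested. Cyba was read by 2 probes and each of the others by 1. Where a gene had several probes, the one with the highest mean signal stood for it. The BMDM came from C57BL/6 mice labelled as male and were grown from femoral bone marrow in M-CSF. The mice were wild-type (wt, 12 to 13 weeks old), MK2-deficient (MK2-/-, 10 to 13 weeks) or deficient in both MK2 and MK3 (MK2/3-/-, 11 to 14 weeks). Both deficiencies were constitutive and thus present throughout development and differentiation of the cells. BMDM of each genotype were incubated for 360 min with 100 ng/ml LPS or with medium alone, and 22 one-colour arrays covered the 6 groups. There were 3 arrays of wt BMDM with LPS and 4 in medium, 4 and 4 of MK2-/- BMDM, and 4 and 3 of MK2/3-/- BMDM. All arrays of a genotype were on 1 slide, so genotype and slide cannot be told apart, whereas the arrays with and without LPS of one genotype were on the same slide.

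Macrophages take up IgG-coated particles through the Fcγ receptors. Fcgr1 encodes the high-affinity receptor, and Fcgr3 and Fcgr4 encode activating receptors of lower affinity. All of these pair with the common γ chain, the product of Fcer1g, which carries the activating tyrosine motif that recruits Syk. Fcgr2b encodes the inhibitory receptor, which carries its own inhibitory motif and recruits the lipid phosphatase SHIP1, the product of Inpp5d. One consequence of receptor engagement is assembly of the NADPH oxidase, which makes superoxide. Its membrane part, cytochrome b558, consists of gp91phox (Cybb) and p22phox (Cyba), and p47phox (Ncf1), p40phox (Ncf4) and Rac2 are among the proteins that join it from the cytosol. Interferons and PU.1 are known regulators of several of these genes in macrophages.

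The sequences just upstream of 5 of the genes are printed here because the signals of these genes moved with LPS. Most of them, namely Fcgr1, Fcgr4, Fcgr2b and Cybb, rose in each genotype, and Cyba is set beside them as a gene that did not rise. Each is the 250 bases before the annotated gene start, 5′ to 3′ in the direction of transcription, from RefSeq on the build GRCm38.p6. Capitals mark matches, on either strand, to any of 3 short patterns. These were GAAANNGAAA, the core of an interferon-stimulated response element, TTCNNNGAA, the pattern bound by STAT factors, and GAGGAA, the box bound by PU.1.
Fcgr1, chr3:96293970-96294219, reverse strand: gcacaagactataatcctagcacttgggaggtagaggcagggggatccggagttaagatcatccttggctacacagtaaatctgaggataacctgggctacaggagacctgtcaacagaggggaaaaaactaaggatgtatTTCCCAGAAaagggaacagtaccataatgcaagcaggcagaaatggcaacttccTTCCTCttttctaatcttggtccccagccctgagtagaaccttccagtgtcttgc
Fcgr4, chr1:171018676-171018925, forward strand: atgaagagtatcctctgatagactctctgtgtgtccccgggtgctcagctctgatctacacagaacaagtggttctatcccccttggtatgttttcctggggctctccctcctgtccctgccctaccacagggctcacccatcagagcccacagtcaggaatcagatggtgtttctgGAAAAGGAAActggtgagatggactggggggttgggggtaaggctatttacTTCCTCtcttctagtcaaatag
Fcgr2b, chr1:170976072-170976321, reverse strand: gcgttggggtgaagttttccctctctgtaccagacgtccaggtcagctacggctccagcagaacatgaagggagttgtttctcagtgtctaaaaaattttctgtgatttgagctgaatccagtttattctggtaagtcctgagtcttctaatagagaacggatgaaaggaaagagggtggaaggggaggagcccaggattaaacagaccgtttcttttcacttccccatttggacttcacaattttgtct
Cybb, chrX:9469325-9469574, reverse strand: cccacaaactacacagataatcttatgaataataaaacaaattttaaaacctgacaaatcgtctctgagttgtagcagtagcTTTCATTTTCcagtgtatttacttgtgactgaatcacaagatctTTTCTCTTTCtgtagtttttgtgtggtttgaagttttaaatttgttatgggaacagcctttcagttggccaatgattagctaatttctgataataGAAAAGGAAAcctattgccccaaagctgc
Cyba, chr8:122432941-122433190, reverse strand: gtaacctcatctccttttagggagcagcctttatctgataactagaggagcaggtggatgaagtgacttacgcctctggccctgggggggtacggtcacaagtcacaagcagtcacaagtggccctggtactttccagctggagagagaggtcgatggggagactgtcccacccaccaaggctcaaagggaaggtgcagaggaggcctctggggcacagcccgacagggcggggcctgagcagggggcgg

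Of all 32841 promoter windows of this length in the RefSeq table, 2.98% held the response element core, 7.02% the STAT pattern and 23.3% the PU box. The Fcgr4 window held the core GAAAAGGAAA, which starts 73 bases before the gene start, and a PU box. The Cybb window held 3 copies of the core, and the one nearest the gene start, 29 bases before it, had the same letters as that of Fcgr4. The Fcgr1 window held the STAT pattern as TTCCCAGAA at 109 bases and a PU box at 55 bases. The windows of Fcgr2b and Cyba held none of the 3 patterns, nor did that of Fcer1g. Ncf1 had a core and a STAT pattern that overlap by 3 bases, and Fcgr3, with 2 annotated starts, had a PU box in both windows. The table gave 9 windows for 8 of the 9 genes, with none for Ncf4. A match describes the letters of the window, and binding was not measured.

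The signals are log2 values of the background-corrected spot brightness, quantile normalised over the 22 arrays, so a difference of 1 is a doubling of signal. Between 61.1% and 78.0% of the probes on an array were well above background, no spot was saturated, and all 10 probes of the 9 genes were well above background on every array on which they were measured. The Ncf4 spot of wt medium replicate 4 was marked as non-uniform by the scanner software and left out, which leaves 3 wt medium values for Ncf4. In the signals of the deleted kinases, Mapkapk2 was between 10.77 and 12.39 in wt medium arrays and between 8.34 and 9.01 in those of both knockouts. With LPS it was between 14.28 and 15.33 in wt arrays and between 10.86 and 11.95 in those of the knockouts, and whether the probe lies in the deleted part is not given in the sources used here. Mapkapk3 under LPS was between 11.92 and 12.57 in wt and MK2-/- arrays but between 7.65 and 8.55 in MK2/3-/- arrays, and in medium between 12.39 and 13.42 but between 10.94 and 11.40. Of the 12 macrophage markers, 11 were tested, each with at least 1 probe well above background on all arrays. Fcgr1, Fcgr3, Fcer1g and Cybb are themselves among these markers. Some arrays stood apart. Wt medium replicate 4 had the 200 genes with the strongest LPS induction in MK2-/- BMDM at a median of 1.76 above their mean on the other wt medium arrays, while the same median was between −0.69 and −0.55 for each of those. MK2-/- LPS replicate 3 had 3310 marked spots against 162 to 452 on the others. Both MK2-/- replicate 3 arrays, with and without LPS, had the Y-linked Ddx3y at 1.99 and 2.01, where the other 20 arrays had 10.09 to 11.26, against the label of male mice.

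The activating receptor genes rose with LPS, but not to the same extent, and the Fcgr3 rise in MK2-/- BMDM was called only with the arrays scaled to their 75th percentile. Fcgr4 rose 14.4-fold in wt BMDM, 10.1-fold in MK2-/- BMDM and 16.4-fold in MK2/3-/- BMDM. Fcgr1 rose 3.19-fold, 3.15-fold and 2.99-fold, in the same order. Fcgr3 rose 2.30-fold in wt and 1.67-fold in MK2/3-/- BMDM.

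The signal of Fcgr4 was 9.51, 11.08, 10.29 and 10.66 in wt medium and 14.26, 14.35 and 14.07 with LPS. MK2-/- BMDM had 11.89, 10.74, 9.65 and 10.98 in medium and 14.14, 14.32, 13.75 and 14.41 with LPS. In MK2/3-/- BMDM it was 11.69, 11.16 and 10.07 in medium and 15.14, 15.36, 14.41 and 15.12 with LPS. In each genotype the lowest LPS array lay above the highest medium array, and the medium arrays spread more widely than the LPS arrays. The LPS response was 3.85 ± 0.45 (SE, log2) in wt, 3.34 ± 0.41 in MK2-/- and 4.04 ± 0.45 in MK2/3-/- BMDM, with adjusted p = 1.40e-06, 1.74e-06 and 4.16e-07. Adjusted p-values here and below are from limma, with Benjamini-Hochberg adjustment over all 22346 genes, and a gene was called changed below 0.05.

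Fcgr1 had 11.98, 13.05, 13.31 and 13.10 in wt medium and 14.54, 14.73 and 14.33 with LPS. For MK2-/- BMDM the values were 11.70, 12.30, 12.28 and 12.64 in medium and 13.84, 13.96, 13.66 and 14.11 with LPS. In MK2/3-/- BMDM they were 12.52, 12.65 and 12.32 in medium and 14.03, 13.86, 14.15 and 14.25 with LPS. The groups with and without LPS did not overlap in any genotype, and all 8 LPS arrays of the knockouts lay below the lowest wt LPS array. The LPS responses were 1.67 ± 0.26, 1.66 ± 0.24 and 1.58 ± 0.26 (log2, SE), with adjusted p = 4.15e-05, 1.30e-05 and 5.27e-05.

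Fcgr3 had 11.78, 12.92, 12.09 and 11.65 in wt medium and 13.85, 13.21 and 12.86 with LPS, and the second medium array overlapped the LPS arrays. Arrays of MK2-/- BMDM had 13.21, 13.46, 12.54 and 13.24 in medium and 13.29, 14.01, 13.45 and 13.53 with LPS, which also overlap. In MK2/3-/- BMDM it had 12.93, 13.30 and 12.55 in medium and 13.57, 13.68, 13.62 and 13.79 with LPS, with no overlap. The medium arrays of the knockouts were thus mostly where wt arrays lay with LPS. The response of 1.20 ± 0.30 in wt was called (adjusted p = 0.0033), that of 0.46 ± 0.28 in MK2-/- BMDM was not (adjusted p = 0.20, against 1.06 and 0.0021 under 75th percentile scaling), and that of 0.74 ± 0.30 in MK2/3-/- BMDM passed by a narrow margin (adjusted p = 0.0499). With the methods' t-test in place of limma the wt response was called without adjustment but not after it (adjusted p = 0.076). The MK2/3-/- response was lost in 14 of 22 fits that each left out 1 array, also where that array belonged to another genotype, and was 0.55 (adjusted p = 0.21) without MK2/3-/- medium replicate 3.

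The inhibitory receptor gene Fcgr2b rose 21.5-fold in wt, 18.6-fold in MK2-/- and 11.5-fold in MK2/3-/- BMDM. Its signal was 9.68, 10.28, 9.64 and 11.08 in wt medium and 15.36, 14.44 and 13.99 with LPS. Signals of MK2-/- BMDM were 11.52, 10.86, 9.92 and 10.49 in medium and 15.02, 15.42, 14.95 and 14.29 with LPS. In MK2/3-/- BMDM it was 11.03, 10.27 and 9.33 in medium and 13.97, 13.66, 14.04 and 13.27 with LPS. In every genotype the lowest LPS array lay well above the highest medium array. The responses were 4.43 ± 0.45, 4.22 ± 0.42 and 3.53 ± 0.45 (log2, SE), with adjusted p = 2.75e-07, 9.67e-08 and 2.55e-06. In wt BMDM this response was larger than that of 99.1% of the genes tested. The probe of Fcgr2b is spotted 10 times on each array, and the SD among these spots had a median of 0.11 (log2; range 0.04 to 0.19), against an SD of 0.35 to 0.85 between arrays of a group. The probes of the related receptors could share some sequence, and cross-hybridisation between them was not tested.

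The γ chain gene Fcer1g was bright in all groups. Under quantile normalisation it did not pass the test in any genotype when all groups shared one estimate of the spread. Under 75th percentile scaling it was called in both knockouts (given below). Its signal was 16.90, 17.60, 17.66 and 17.54 in wt medium and 15.25, 17.95 and 17.99 with LPS. In MK2-/- BMDM it was 17.31, 17.61, 17.50 and 17.49 in medium and 17.97, 17.98, 17.94 and 18.01 with LPS, and in MK2/3-/- BMDM it was 17.36, 17.63 and 17.49 in medium and 18.08, 18.03, 18.26 and 17.04 with LPS. Most LPS arrays were thus above all medium arrays, with wt LPS replicate 1 and MK2/3-/- LPS replicate 4 below. The differences were −0.36 ± 0.46 (adjusted p = 0.57), 0.50 ± 0.42 (adjusted p = 0.37) and 0.36 ± 0.46 (adjusted p = 0.56). The value of wt LPS replicate 1 came from a single unmarked spot with a difference of −2.72 from the mean of the other wt LPS arrays, where the median difference over the 150 brightest genes was 0.01. Without that array the wt difference was 0.55 ± 0.27 (adjusted p = 0.11), and the difference in MK2-/- BMDM had an adjusted p of 0.074. The MK2-/- difference was called when only the groups compared were fitted (adjusted p = 0.021) and by the methods' t-test after adjustment (adjusted p = 0.0016).

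**Figure D1:**
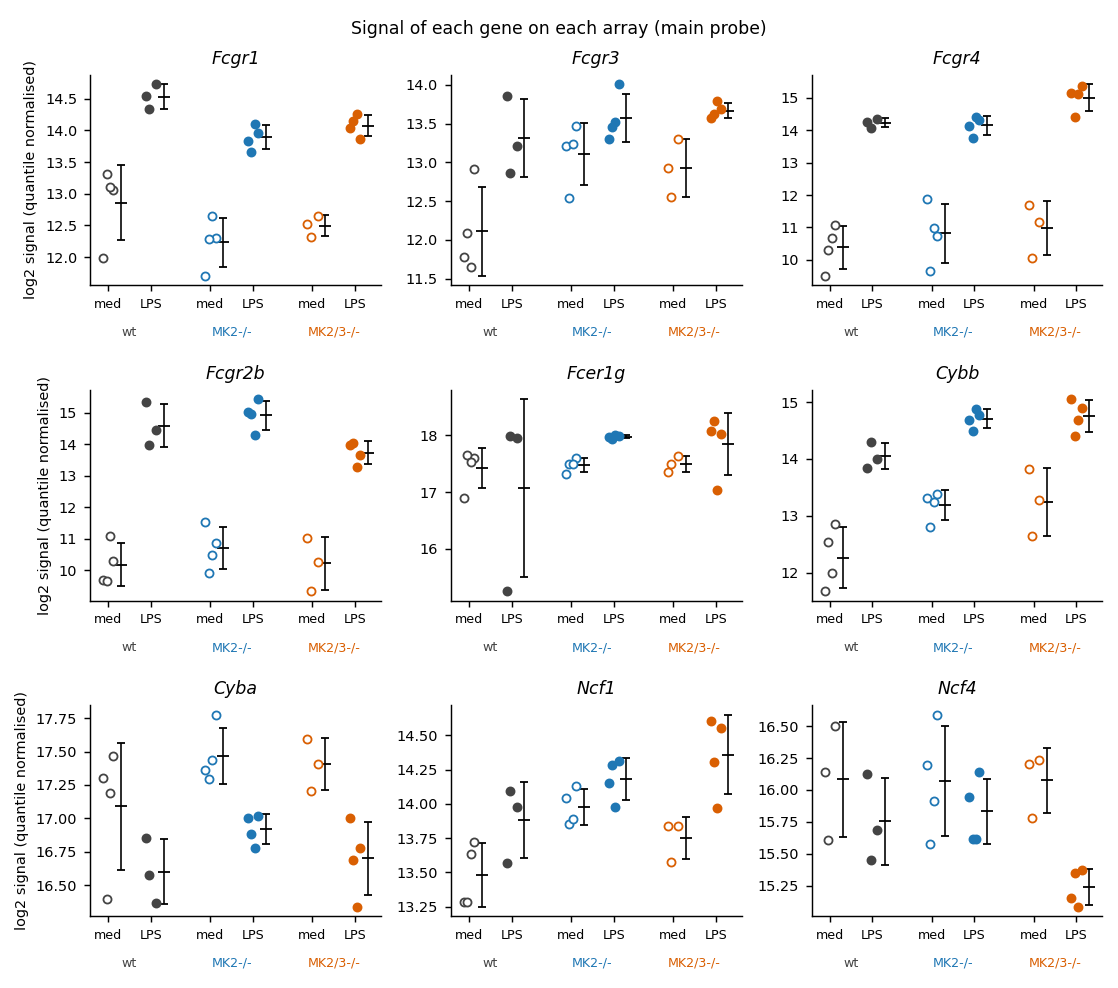
Signal of the main probe of each gene on each array (vertical axis, log2 of the quantile-normalised signal, a separate scale per gene) for wt, MK2-/- and MK2/3-/- BMDM in medium (med, open) and with LPS (filled). The bar beside each group is the mean ± SD. Fcgr1, Fcgr4, Fcgr2b and Cybb separate by LPS in every genotype, and the single low Fcer1g value is wt LPS replicate 1 at 15.25.

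Of the oxidase genes, Cybb rose in each genotype, whereas the other 3 changed by less than 1 log2 unit. Cybb, which encodes the electron-carrying subunit, was 11.68, 12.86, 12.54 and 11.99 in wt medium and 13.85, 14.00 and 14.30 with LPS. The MK2-/- arrays had 13.32, 13.38, 12.80 and 13.25 in medium and 14.69, 14.77, 14.50 and 14.88 with LPS, and in MK2/3-/- BMDM it was 13.83, 13.29 and 12.64 in medium and 15.05, 14.89, 14.41 and 14.68 with LPS. The conditions did not overlap in any genotype, and with LPS the wt arrays lay below those of both knockouts. The rises were 3.43-fold, 2.88-fold and 2.84-fold, or 1.78 ± 0.28, 1.53 ± 0.26 and 1.50 ± 0.28 on the log2 scale (adjusted p = 4.66e-05, 7.42e-05 and 1.86e-04). Cybb is X-linked, and its lowest values among MK2-/- arrays of either condition were on the replicate 3 arrays with low Ddx3y. The same held for Fcgr4, which is not X-linked, at 9.65 in medium and 13.75 with LPS. A part of sex in these values was not tested. Without the replicate 3 arrays the Cybb response in MK2-/- BMDM was 1.47 (adjusted p = 8.13e-04).

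Cyba, the stabilising partner of gp91phox, had 17.30, 17.47, 16.40 and 17.19 in wt medium and 16.86, 16.37 and 16.58 with LPS. In MK2-/- BMDM it had 17.36, 17.77, 17.30 and 17.44 in medium and 17.01, 17.02, 16.88 and 16.78 with LPS, and in MK2/3-/- BMDM it had 17.60, 17.41 and 17.21 in medium and 17.00, 16.78, 16.69 and 16.34 with LPS. LPS arrays lay below medium arrays without overlap in the knockouts, and 1 wt medium array lay among the wt LPS arrays. The differences were −0.49 ± 0.22 in wt, −0.54 ± 0.21 in MK2-/- and −0.70 ± 0.22 in MK2/3-/- BMDM, with adjusted p = 0.091, 0.040 and 0.014, so that the fall was called in both knockouts, although its sign turned with each array scaled to its 75th percentile (given below). The second Cyba probe, A_51_P131800, also read lower with LPS, by −0.58 (adjusted p = 0.015), −0.76 (adjusted p = 9.04e-04) and −0.63 (adjusted p = 0.0069) over all 28054 probes tested. The call in MK2-/- BMDM was lost in 7 of 22 fits without 1 array, each of which left out an array of that genotype, with values of −0.58 to −0.44. Among other settings, it was also lost with the authors' value table (−0.38, adjusted p = 0.15). The same held over all non-control probes (adjusted p = 0.055) and with array weights (adjusted p = 0.051). Without wt medium replicate 3 the wt difference was −0.72 (adjusted p = 0.0067).

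Ncf1, the organiser subunit, had 13.29, 13.72, 13.28 and 13.64 in wt medium and 13.57, 13.98 and 14.10 with LPS. In MK2-/- BMDM it had 14.04, 14.13, 13.85 and 13.89 in medium and 14.15, 14.31, 14.28 and 13.98 with LPS, and in MK2/3-/- BMDM it had 13.84, 13.84 and 13.58 in medium and 14.61, 14.55, 14.31 and 13.97 with LPS. Only the MK2/3-/- groups did not overlap. Ncf1 rose there by 0.61 ± 0.18 (adjusted p = 0.0097), while the differences of 0.40 ± 0.18 in wt and 0.20 ± 0.17 in MK2-/- BMDM did not pass (adjusted p = 0.090 and 0.37). Without wt LPS replicate 1 the wt difference was 0.55 (adjusted p = 0.032), and without MK2/3-/- medium replicate 3 the MK2/3-/- difference was 0.52 (adjusted p = 0.054). The MK2/3-/- call was also lost when only the groups compared were fitted (adjusted p = 0.062) and by the methods' t-test after adjustment (adjusted p = 0.055).

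Ncf4, whose product binds the phosphoinositide of phagosome membranes, had 16.14, 16.50 and 15.61 in wt medium and 16.12, 15.69 and 15.45 with LPS. In MK2-/- BMDM it had 16.20, 16.59, 15.57 and 15.91 in medium and 15.95, 16.14, 15.62 and 15.62 with LPS, and in MK2/3-/- BMDM it had 16.21, 16.24 and 15.78 in medium and 15.16, 15.37, 15.35 and 15.09 with LPS. The MK2/3-/- LPS arrays lay below every other array. There Ncf4 fell by 0.83 ± 0.25 on the log2 scale (adjusted p = 0.011), a fall that likewise turned to 0.09 under that scaling, against −0.33 ± 0.27 in wt and −0.24 ± 0.23 in MK2-/- BMDM, neither of which passed (adjusted p = 0.36 and 0.45).

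**Figure D2:**
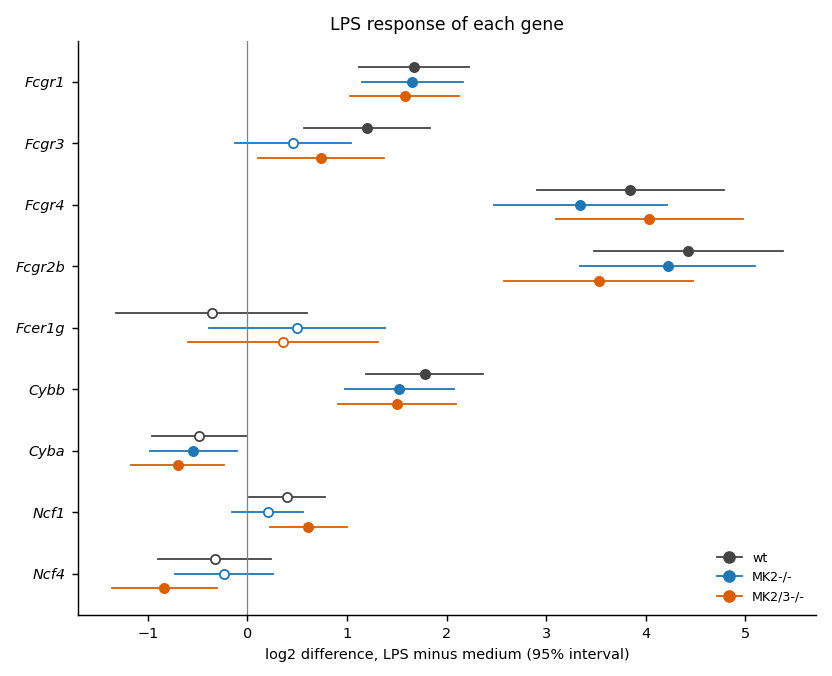
LPS response of each gene as the log2 difference of LPS minus medium (horizontal axis) with its 95% interval, for wt, MK2-/- and MK2/3-/- BMDM. Filled points were called at an adjusted p below 0.05, and Fcgr2b and Fcgr4 have the largest responses, from 3.34 to 4.43.

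Counted together, 5 of the 9 genes rose and 0 fell in wt BMDM, 4 rose and 1 fell in MK2-/- BMDM, and 6 rose and 2 fell in MK2/3-/- BMDM, where the falls, of Cyba and Ncf4, are those whose sign turned with the scaling. Over all genes tested, 18.6%, 17.6% and 20.3% rose and 23.5%, 27.2% and 28% fell, so that the share of the 9 genes that rose was above the background in each genotype and the share that fell was not. The median response of the 9 genes was 1.20, 0.50 and 0.74 (log2), where that of all genes was −0.04, −0.01 and 0.02. The LPS arrays lay above all medium arrays for 4 of the 9 genes in wt, 5 in MK2-/- and 6 in MK2/3-/- BMDM, where they did for 22.1%, 17.4% and 21.4% of all genes. They lay below all medium arrays for 0, 1 and 2 of the 9, where they did for 26.7%, 24.4% and 28.9% of all genes. These counts describe the chosen genes and were not tested as a set. A lower share of a cell type and less transcript per cell cannot be told apart in such bulk RNA. Marker sums of other cell types moved in both directions in wt BMDM. Over the markers measured on all arrays, the summed signal was 582 to 636 with LPS and 1204 to 1553 in medium for B cells, 5526 to 5953 and 3656 to 4552 for T cells, and 112 to 247 and 55.8 to 92.0 for NK cells. Among the B-cell markers Cd79b and Cd22 fell while Cd79a rose. For dendritic cells the sum was 48065 to 71204 with LPS and 60694 to 152344 in medium, although their marker Zbtb46 rose. The sum for fibroblasts or stroma spread widely within a group, from 11702 to 61108 with LPS and from 3053 to 103976 in medium. The 6 macrophage markers that are not among the 9 genes summed to 416857 to 461641 with LPS and 552887 to 768420 in medium. Their part in the responses was not tested.

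The responses of the moderately changing genes turned on how the arrays were scaled. With each array scaled to the 75th percentile of its signals in place of quantile normalisation, the median response of all genes moved from −0.04, −0.01 and 0.02 to 0.30, 0.28 and 0.29. The rises of Fcgr1, Fcgr4, Fcgr2b and Cybb were called under both, and with the percentile they were 2.16 to 4.85. Cyba changed sign, to 0.34 (adjusted p = 0.14), 0.19 (adjusted p = 0.39) and 0.27 (adjusted p = 0.26), and so did the second Cyba probe, to 0.23, 0.11 and 0.28. Ncf4 changed sign as well, to 0.52 (adjusted p = 0.070), 0.50 (adjusted p = 0.049) and 0.09 (adjusted p = 0.77). Ncf1 became called in wt and MK2-/- BMDM, at 1.05 and 1.00, and remained called in MK2/3-/- BMDM at 1.43. Fcer1g became called in both knockouts, at 1.30 and 1.40, and Fcgr3 in MK2-/- BMDM, at 1.06. In wt BMDM Fcer1g changed sign, from −0.36 to 0.53, and was not called (adjusted p = 0.41).

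**Figure D3:**
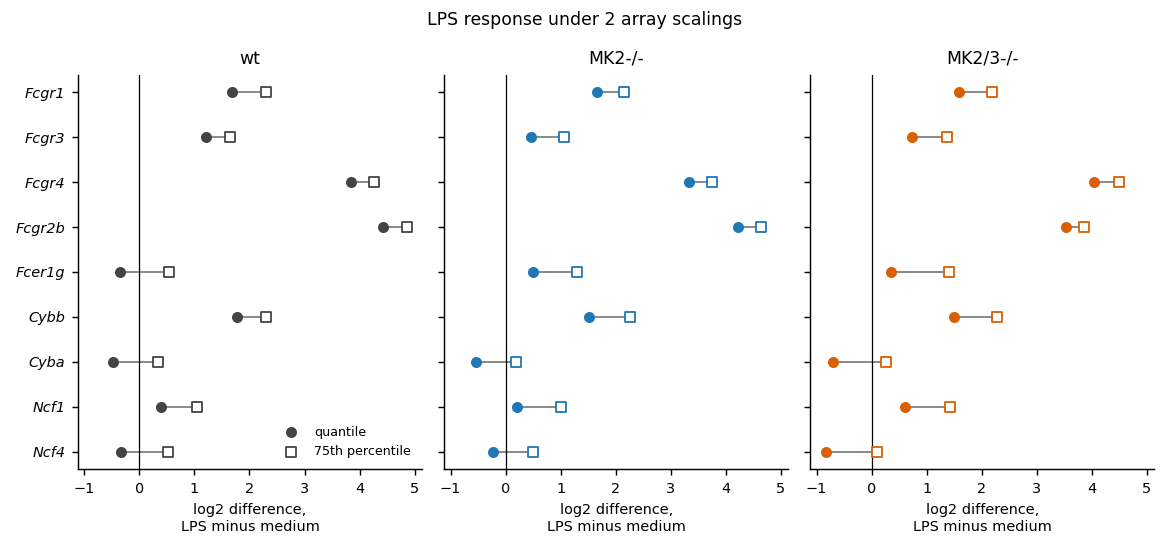
LPS response of each gene (horizontal axis, log2 difference of LPS minus medium) under quantile normalisation (filled circles) and under 75th percentile scaling (open squares), in the 3 genotypes. Every gene moves to the right under the percentile. Cyba and Ncf4 cross 0 in each genotype, and Fcer1g does so in wt BMDM.

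Whether MK2, or MK2 and MK3 together, alter these genes was asked by comparing genotypes within a condition and by comparing LPS responses between genotypes. Under LPS, 0 of the 9 genes were called by limma when either knockout was set against wt BMDM or the knockouts against each other. Over all genes, 11.6%, 23.7% and 13.6% were called. An unadjusted p below 0.05 was reached by 2 of the 9 genes in each of these comparisons and by 29.5%, 36.7% and 28.3% of all genes. The methods' t-test without adjustment called 2, 4 and 3 of the 9, and 26.5%, 26.1% and 19.7% of all genes.

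The mean signals of the receptor genes under LPS put the genotypes in different orders, which the tests did not separate. Fcgr2b was highest in MK2-/- BMDM, with a mean of 14.92 ± 0.47 (SD, n = 4), followed by wt with 14.60 ± 0.70 (n = 3) and MK2/3-/- BMDM with 13.74 ± 0.35 (n = 4). All MK2/3-/- arrays lay below all MK2-/- arrays, at a difference of −1.18 ± 0.42 that did not pass (adjusted p = 0.068, 95% interval −2.06 to −0.30). Fcgr4 was highest in MK2/3-/- BMDM with 15.01 ± 0.42, followed by wt with 14.23 ± 0.14 and MK2-/- BMDM with 14.16 ± 0.29. All MK2/3-/- arrays were above all wt arrays by a difference of 0.78 ± 0.45 (adjusted p = 0.22), and the difference from MK2-/- BMDM was 0.85 ± 0.41 (adjusted p = 0.19, 95% interval −0.02 to 1.72). No pair of genotypes in these orders differed beyond the test's threshold in the main fit. With normexp background correction the Fcgr2b difference of −1.19 was called (adjusted p = 0.048).

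Fcgr1 was highest in wt BMDM with LPS, at 14.53 ± 0.20, with differences from it of −0.64 ± 0.26 in MK2-/- and −0.46 ± 0.26 in MK2/3-/- BMDM (adjusted p = 0.11 and 0.22). It was called in MK2-/- BMDM under 75th percentile scaling, at −0.91 (adjusted p = 0.026), and without wt medium replicate 1 (adjusted p = 0.045). Cybb was lowest in wt BMDM, at 14.05 ± 0.23, with differences from it of 0.66 ± 0.28 and 0.71 ± 0.28 (adjusted p = 0.12 and 0.076). In both knockouts every LPS array lay above the wt LPS arrays for Cybb and below them for Fcgr1. Ncf4 was lower in MK2/3-/- BMDM than in wt (−0.51 ± 0.25, adjusted p = 0.15) and than in MK2-/- BMDM (−0.59 ± 0.23, adjusted p = 0.10), without overlap, and neither passed, although the former was called under 75th percentile scaling (−0.70, adjusted p = 0.018). Ncf1 differed between MK2/3-/- and wt BMDM by 0.48 ± 0.18 (adjusted p = 0.066), with calls under normexp (adjusted p = 0.038), array weights (0.046) and a trended prior (0.042). Such separations are common among all genes under LPS. The MK2-/- arrays lay above all wt arrays for 12.6% and below them for 15.3%, and the MK2/3-/- arrays above all wt arrays for 12.4% and below them for 15.9%. The MK2/3-/- arrays lay below all MK2-/- arrays for 5.68%.

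In medium, Fcgr3 and Cybb were higher in MK2-/- than in wt BMDM, and these were the only 2 of the 9 genes called between genotypes, where 8.88% of all genes were called. Fcgr3 was higher by 1.00 ± 0.28 (adjusted p = 0.033) and Cybb by 0.92 ± 0.26 (adjusted p = 0.037), and for each, 1 wt array overlapped the MK2-/- arrays. Between MK2/3-/- and wt BMDM the differences were 0.82 ± 0.30 (adjusted p = 0.16) and 0.98 ± 0.28 (adjusted p = 0.075), and 0 of the 9 genes were called, where 2.02% of all genes were. Between the knockouts 0 of 9 were called against 2.83% of all genes. Unadjusted p-values were below 0.05 for 2 and 0 of the 9, respectively, and for 16.9% and 15% of all genes. Ncf1 was the 1 gene without overlap, with the MK2-/- arrays above all wt arrays (difference 0.50, adjusted p = 0.074, against 13.2% of all genes) and the MK2/3-/- arrays below all MK2-/- arrays (−0.23, adjusted p = 0.63, against 10.9%). Both calls rested on single arrays. Without wt medium replicate 4, the array with raised LPS-inducible genes, they were 0.85 (adjusted p = 0.095) and 0.83 (adjusted p = 0.093). They were also both lost without wt medium replicate 1 (0.89 and 0.72) and without MK2-/- medium replicate 1, 2 or 4, and Fcgr3 was lost without wt medium replicate 3 (adjusted p = 0.063). Under 75th percentile scaling they were 0.64 (adjusted p = 0.080) and 0.56 (adjusted p = 0.12). Fcgr1 had a difference of −0.63 ± 0.24 between MK2-/- and wt BMDM in medium (adjusted p = 0.11), which was called without wt medium replicate 1 (−0.92, adjusted p = 0.019) and under 75th percentile scaling (−0.77, adjusted p = 0.036).

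**Figure D4:**
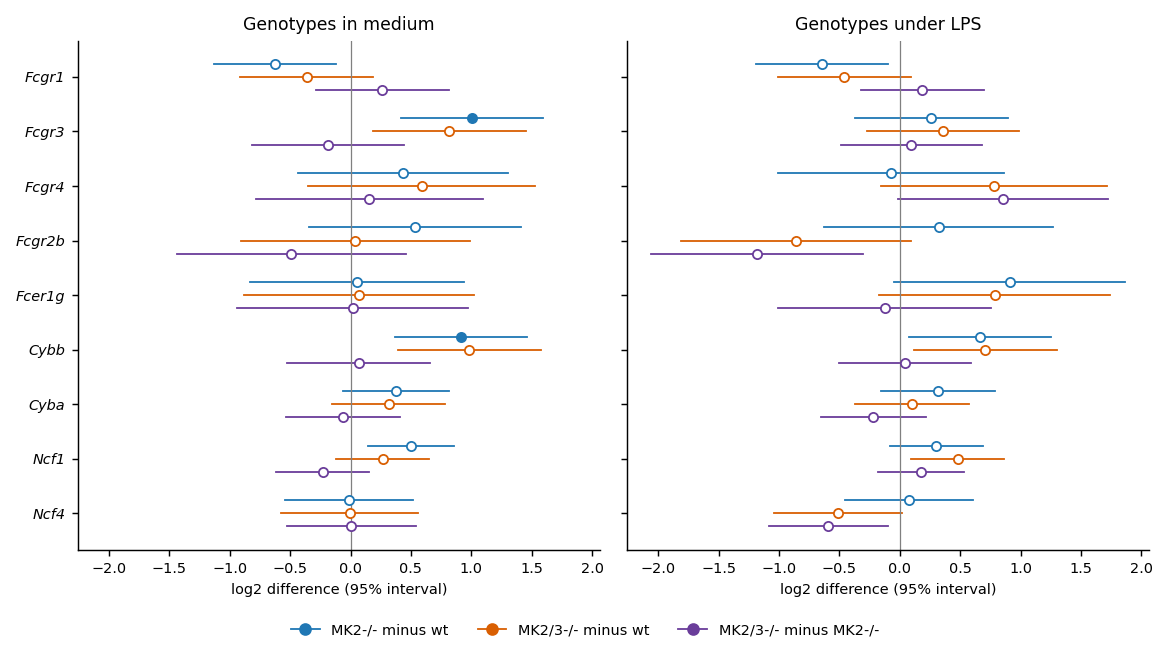
Log2 differences between genotypes (horizontal axis) with 95% intervals for each gene, in medium on the left and under LPS on the right. The 2 filled points, Fcgr3 at 1.00 and Cybb at 0.92 in MK2-/- minus wt BMDM in medium, were called at an adjusted p below 0.05.

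The LPS responses themselves were compared between genotypes, a comparison in which an additive effect of the slide cancels. By limma 0 of the 9 genes were called in any of these 3 comparisons, and 0 had an unadjusted p below 0.05, where 7.54%, 11.4% and 8.61% of all genes had one. Of all genes 0% were called for MK2-/- against wt, 0.689% for MK2/3-/- against wt and 0.0671% for the knockouts against each other. The intervals leave room for sizeable differences. For Fcgr2b the response in MK2/3-/- BMDM differed from wt by −0.90 ± 0.64 (adjusted p = 0.69, 95% interval −2.24 to 0.44), for Fcgr4 by 0.19 ± 0.63 (interval −1.14 to 1.52), and for Fcgr3 the MK2-/- response differed from wt by −0.74 ± 0.41 (adjusted p = 0.71, interval −1.60 to 0.12). For Fcgr1 the intervals were narrower, at −0.77 to 0.73 in MK2-/- and −0.87 to 0.68 in MK2/3-/- BMDM, and the call of Fcgr3 in wt but not in MK2-/- BMDM is thus not a shown difference between them.

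The genes around the receptors and the oxidase were described from 4 lists. Their counts under 75th percentile scaling have no share of all genes beside them, and that scaling raised the median LPS response of all genes in each genotype. Of 15 transcription factors known to act on Fc receptor and oxidase genes, 10 rose and 2 fell in wt, 11 and 2 in MK2-/- and 7 and 2 in MK2/3-/- BMDM, with median responses of 1.38, 1.24 and 0.76. Stat2, a component of the factor that binds interferon-stimulated response elements, rose by 2.60 ± 0.26, 2.98 ± 0.24 and 2.75 ± 0.26 (adjusted p = 2.23e-07, 7.24e-09 and 5.89e-08). Stat3 rose by 2.76, 2.35 and 2.93, and the NF-κB subunit gene Nfkb1 by 2.67, 2.84 and 3.10. Cebpa, a myeloid lineage factor, fell, with differences of −5.18, −5.92 and −5.93. Spi1, which encodes PU.1 and was picked after its values were seen, rose by 1.38 ± 0.19, 1.24 ± 0.18 and 1.49 ± 0.19 (adjusted p = 1.23e-05, 1.10e-05 and 2.89e-06). Under LPS Irf8, an interferon regulatory factor that partners with PU.1, was higher in MK2/3-/- than in wt BMDM by 1.55 ± 0.39 (adjusted p = 0.0082) and Cebpb differed by −1.10 ± 0.26 (adjusted p = 0.0048). Under 75th percentile scaling 11, 11 and 10 of these factors rose and 1 fell in each genotype.

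Of 40 genes of Fcγ receptor signalling, 11 rose and 12 fell in wt, 13 and 12 in MK2-/- and 12 and 10 in MK2/3-/- BMDM, with medians of −0.19, 0.00 and −0.13. Inpp5d, the phosphatase recruited by the inhibitory receptor, had the largest change, −4.72 ± 0.36 in wt, −5.48 ± 0.33 in MK2-/- and −5.84 ± 0.36 in MK2/3-/- BMDM (adjusted p = 7.92e-09, 1.93e-10 and 3.24e-10). The Src family kinase gene Lyn rose by 2.41, 3.13 and 2.86, and Lcp2, which encodes the adaptor SLP-76, by 3.86, 4.14 and 3.62. Lat2, another adaptor gene, fell, with differences of −3.20, −3.44 and −3.46. Between genotypes under LPS, the Src family kinase gene Fgr was lower in MK2/3-/- BMDM, with differences of −1.44 ± 0.39 from wt (adjusted p = 0.012) and −1.27 ± 0.36 from MK2-/- BMDM (adjusted p = 0.025), whereas Inppl1, a second inositol phosphatase gene, was higher by 1.30 ± 0.26 (adjusted p = 0.0020) and 1.07 ± 0.24 (adjusted p = 0.0068). Under 75th percentile scaling 16, 20 and 18 of the 40 rose and 6, 8 and 7 fell.

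Of 20 partners and relatives of the oxidase, 16 were tested, of which 2 rose and 5 fell in wt, 2 and 6 in MK2-/- and 2 and 7 in MK2/3-/- BMDM. Rac2, the GTPase of the phagocyte oxidase, rose by 0.82 ± 0.20 in wt, 0.84 ± 0.18 in MK2-/- and 0.54 ± 0.20 in MK2/3-/- BMDM (adjusted p = 0.0026, 8.74e-04 and 0.031). Hvcn1, the proton channel that balances the charge of the oxidase, fell in 2 genotypes, with differences of −1.23 ± 0.38 in wt and −1.57 ± 0.38 in MK2/3-/- BMDM (adjusted p = 0.014 and 0.0020). In MK2-/- BMDM it was not among the 4 genes of this list with the largest called differences. Nox1, a relative of Cybb, rose by 1.53, 1.74 and 1.76, and Noxo1, a relative of Ncf1, fell, with differences of −1.54, −2.42 and −0.67. Of the genes of the 4 lists, 2 had a called difference in LPS response between genotypes. These were Noxo1 between the knockouts, at 1.75 ± 0.30 (adjusted p = 0.036), and the guanine nucleotide exchange factor gene Vav1 between MK2/3-/- and wt BMDM, at −1.51 (adjusted p = 0.035). Neither of these differences in response was called under 75th percentile scaling. Under 75th percentile scaling 4, 3 and 3 of the 16 rose and 3, 1 and 3 fell.

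Of 12 other receptors for antibody Fc parts, 9 were tested. Of these, 3 rose and 2 fell in wt, 3 and 3 in MK2-/-, and 3 and 1 in MK2/3-/- BMDM. Trim21, a cytosolic Fc receptor gene, rose by 3.16 ± 0.24, 3.63 ± 0.22 and 2.92 ± 0.24, and Fcmr, the IgM receptor gene, by 2.49, 2.18 and 2.12. Fcgrt, which encodes the neonatal Fc receptor that recycles IgG, fell, with differences of −1.86 ± 0.27, −1.69 ± 0.25 and −2.03 ± 0.27 (adjusted p = 1.71e-05, 1.36e-05 and 3.76e-06). Under 75th percentile scaling 4, 3 and 3 rose and 2, 1 and 1 fell.

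**Figure D5:**
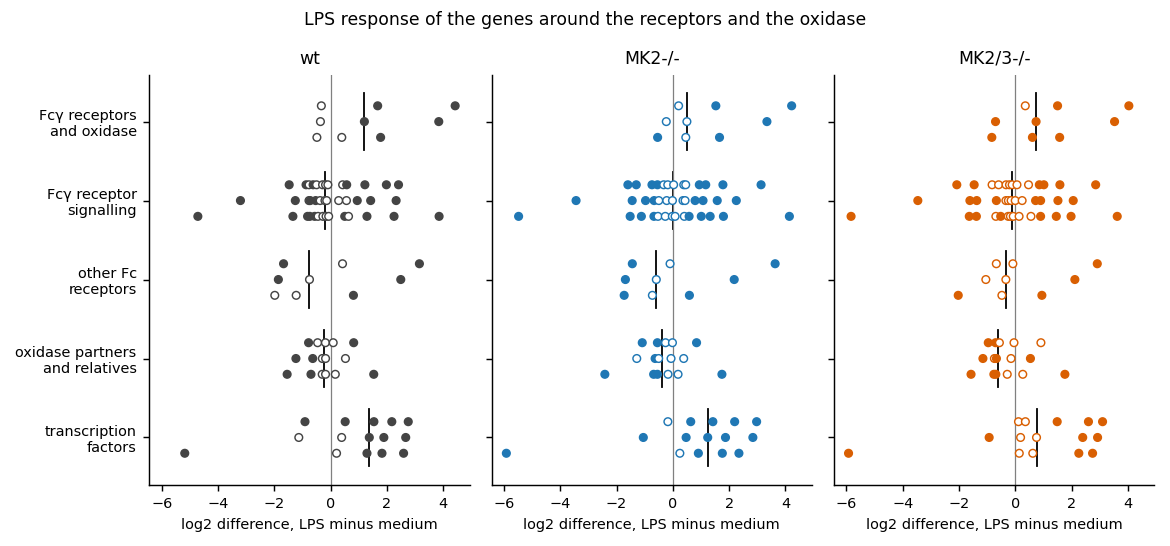
LPS response (horizontal axis, log2 difference of LPS minus medium) of the 9 Fcγ receptor and oxidase genes and of the genes of 4 lists around them, 1 point per gene, in the 3 genotypes. Filled points were called at an adjusted p below 0.05 and black bars are medians, which for the transcription factors were 1.38, 1.24 and 0.76.

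Fcgr2b, Fcgr4, Fcgr3 and Fcer1g follow each other in this order on mouse chromosome 1, with other genes between them. Of the 7 genes tested between Fcgr3 and Fcer1g, chosen for their position, 0 rose and 3 fell in wt BMDM. Those were Cfap126, Pcp4l1 and Tomm40l, with differences of −0.92, −1.95 and −2.19 (adjusted p = 0.0020, 0.0026 and 0.024). Past Fcer1g, Adamts4, which was well above background on 17 arrays, rose by 5.61 (adjusted p = 4.63e-05).

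Across the 22 arrays, the pair of genes among the 9 with the closest signals was Fcgr4 and Cybb, with Pearson's r = 0.92 over all arrays and 0.76 for deviations from the group means. Fcgr4 and Fcgr2b had r = 0.92 over all arrays and 0.61 for the deviations. Cyba and Ncf4 had r = 0.75 and 0.74 over 21 arrays. These values are a description, because the arrays share the LPS contrast, their slides and the normalisation. Of all other genes, those most like Fcgr4 over all arrays were H2-T24 (r = 0.98) and BC147527 (r = 0.98), those most like Fcgr2b were Tnfrsf1b and Psmb10 (both r = 0.98), and those most like Fcgr1 were Ppm1h and Nod1 (both r = 0.95). Those most like Cybb were Gvin1 (r = 0.95) and H2-Q10 (r = 0.94), and those most like Fcgr3 were H2-T23 (r = 0.85) and Cybb itself (r = 0.85). For deviations from the group means the closest were Ms4a6c and Mthfs to Fcgr4 (r = 0.87 and 0.85), Ifi44 and Gp1ba to Fcgr2b (both r = 0.84), Ccl5 and Itm2c to Fcgr1 (r = 0.85 and 0.81), H2-Q7 and H2-D1 to Cybb (r = 0.93 and 0.87), and Ctdsp1 and Hccs to Fcgr3 (r = 0.88 and 0.86). Cyba was closest to Atp6v0c and Tor1a over all arrays (r = 0.94 and 0.92) and to Tmem115 and Atp6v0c in deviations (r = 0.93 and 0.90). Ncf1 was closest to Krtap5-5 and Padi1 (r = 0.91 and 0.90) and to Smap2 and Ptms in deviations (r = 0.84 and 0.81), and Ncf4 to Pgghg and Hmox1 (r = 0.90 and 0.88) and to Ppp1r12c and Dmwd in deviations (r = 0.91 and 0.88). For Fcer1g the closest were Med12 and Ly6e (r = 0.91 and 0.88) and, in deviations, Selenoo and Mff (both r = 0.95), values that include the low spot of wt LPS replicate 1.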

How the data were processed

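RNA of 22 BMDM samples was hybridised to Agilent one-colour mouse arrays (Cy3). The authors deposited the scanner's intensity values per spot, and a value table in log2 units, quantile normalised, which was used as an alternative. Background-corrected intensities were log2 transformed and quantile normalised over all arrays, as in the study's methods. Spots marked as outliers were left out, spots of a probe were averaged, and probes well above background on fewer than 3 arrays were dropped, which left 28054 probes and 22346 genes. Of 29150 RefSeq probes, 27509 were named through the RefSeq gene table. A mean per group was fitted with limma 3.58.1 in R 4.3.3, and 12 contrasts were adjusted by Benjamini-Hochberg. The script was tested on simulated data. The members and lists were chosen with earlier results of these data known. All 9 members are named. Per list and comparison described, up to 4 called genes of largest difference could be named, and per member the 2 most alike genes by each correlation. Alternatives were 75th percentile scaling, normexp (on the median spot intensity, offset 50), other filters, probes, tests, weights and blocks, and leaving out each array. Leaving out 2 doubted arrays, or both arrays with low Y-linked signal, was chosen after seeing the data. The labels do not say which arrays share an animal, so p-values measure the spread between these samples, which may be technical in part. The number of arrays limits the precision. Results for a few listed genes are not reported here.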

Additional observations from a re-analysis of the deposited data

Results flagged for a closer look

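Among 39 sets of 4 arrays of 1 group and 1 probe, 2 held a value far from the others, and chance gives about 1 in 20. Fcer1g was at 16.90 (log2) in wt medium replicate 1, where the nearest of the other wt medium arrays was at 17.54. Cyba, read by the probe A_51_P131800, was at 15.72 in MK2-/- medium replicate 2, where the nearest of the other arrays of that group was at 15.18.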

How the results depend on the processing

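Of 20 called values of single genes, 12 were called in all 38 other fits, namely the rises of Fcgr1, Fcgr4, Fcgr2b and Cybb with LPS in each genotype. Of 88 values that were not called, 36 changed sign in at least 1 fit. Under 75th percentile scaling the LPS falls reversed for Cyba, to 0.19 in MK2-/- and 0.27 in MK2/3-/- BMDM, and for Ncf4 in MK2/3-/- BMDM, to 0.087, and the uncalled difference of Ncf4 in MK2-/- BMDM turned to 0.50, which was called. The number of the 9 genes called with LPS in MK2-/- BMDM was then 8, and 1 was called between MK2-/- and wt BMDM under LPS, 1 in medium, and 1 between MK2/3-/- and wt BMDM under LPS. The share of all genes called under this scaling is not given here, so these counts describe the 9 genes only. The scaling moved the median LPS response of all genes in MK2-/- BMDM from −0.01 to 0.28. Normexp called 1 between MK2/3-/- and wt and 1 between the knockouts under LPS, and a trended prior 1 between MK2/3-/- and wt under LPS. Array weights called 1 between MK2/3-/- and wt under LPS and 2 in medium. Between MK2-/- and wt BMDM in medium, 0 were called when only the groups compared were fitted, by the methods' t-test after adjustment, or without the 2 doubted arrays, and 1 with a minimum change of 2-fold, which left 4 with LPS in MK2/3-/- BMDM. The unadjusted t-test called 2, 4 and 3 between genotypes under LPS, in the order MK2-/- and MK2/3-/- against wt, and MK2/3-/- against MK2-/-. Leaving out 1 array gave 5 to 6 called with LPS in wt, 4 to 5 in MK2-/- and 6 to 8 in MK2/3-/- BMDM, 0 to 2 between MK2-/- and wt in medium, 0 to 1 between either knockout and wt under LPS, and 0 in the other comparisons. The labels do not say whether same-numbered samples are paired. Of 10 same-numbered pairs of an LPS and a medium array, 7 had a correlation of deviations over 0.1 (range −0.08 to 0.37). Of 30 pairs with unlike numbers in the same genotype, 6 did (range −0.33 to 0.42). Both MK2-/- replicate 3 arrays shared the low Y-linked signal. Like-numbered pairs were thus more often correlated, which does not settle whether they share an animal. With the replicate number as a block (correlation 0.12) or the letter of the array name (0.14), the counts were 5, 5 and 8 with LPS, 2 between MK2-/- and wt in medium and 0 elsewhere, as without the block. The cause of these changes was not tested.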
